A study of Mus musculus with 18 samples.

Results

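The 153 regions described here are fixed windows of 1 kb (tiles) on the mouse autosomes whose DNA was methylated in embryonic fibroblasts (MEF) and largely unmethylated in both female and male embryonic stem cells (ESC). They were chosen by their own values: a mean methylation level of 70% or more over the 6 MEF samples, and of 25% or less both over the 4 female and over the 2 male ESC samples. Of 33545 tiles with at least 3 CpGs of 5 or more reads in every sample, 25766 were autosomal with under 30 covered CpGs, 12493 of those reached 70% in MEF, and 153 met both ESC limits. Another 1624 tiles high in MEF were low in female ESC only, 12 in male ESC only, and 10704 stayed above 25% in both. The level of a tile is the methylated share of the read counts summed over its CpGs. A read that spans several CpGs counts once at each, so the reads given for a tile can exceed the sequenced reads behind them. MEF and ESC values chose the tiles, so below they describe the choice and were not tested.

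Methylation was read by reduced representation bisulfite sequencing, in which short CpG-rich restriction fragments are treated so that unmethylated cytosines read as thymine. The 18 samples were 4 of ESC and 4 of MEF from females, 2 of each from males, 2 of induced pluripotent stem cells (iPSC, female), and 2 each of female cells labelled SSEA1-positive (SSEA1+) and SSEA1-negative (SSEA1−), after a surface antigen. The series title concerns stages of reprogramming to pluripotency, and the labels give a cell type, a sex and a sample number for each sample, without strain, allele, age, passage or day. No label ties a sample to a culture or an animal, so the p-values reflect sample-to-sample spread alone, and that spread can be technical. In a bulk sample, a level between 0% and 100% in all cells and a mixture of methylated and unmethylated cells cannot be told apart.

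In mammals, methyl groups on the cytosine of CpG are placed by DNMT3 enzymes, copied at replication by DNMT1 and removed by dilution or by TET oxidation. Most CpGs outside promoter islands are methylated in somatic cells. Cultured mouse ESC with 2 active X chromosomes are known for low methylation across the genome, and male ESC in serum for a level nearer to that of somatic tissue, so a site low in both is a narrower class than a site low in female ESC. During reprogramming of mouse fibroblasts, SSEA1 appears on the minority of cells on the way to pluripotency, and pluripotency genes and the silent X follow later.

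The libraries fell into 3 types by the share of CpGs read on both strands, and these types cross the groups unevenly. All ESC, female MEF 1 and male MEF 2 were of type A, the SSEA1 samples, female MEF 2 and male MEF 1 of type B, and iPSC with female MEF 3 and 4 of type C. Total reads over CpGs ran from 11424460 to 62920167 per sample, and the median reads per tile among the 153 ran from 47 in SSEA1+ replicate 2 to 358 in male MEF 1. At 5489 autosomal tiles at 1% or less in every male sample, the median level was 3.20% and 3.44% in the iPSC samples, 0.654% and 0.730% in female MEF 3 and 4, and at most 0.339% in the other samples. Levels of female MEF 3 and 4 correlated at r = 0.996 across tiles, above every other pair of female MEF, so these samples may not be independent.

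Samples also read different CpGs of a tile, which the level of a tile carries with it. From CpGs read in all 18 samples alone, 66 tiles met the rule, with a mean of 16.1% in iPSC and 72.5% in SSEA1−.

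Promoter windows overlapped with 2 of the tiles, and a window of each is shown, to give the letters around the CpGs that were read near a start site. The windows run from 250 bases before to 50 after a RefSeq start site of the germline gene Dmrtb1, at chr4:107683540-107683839, and of the DNA repair gene Rad51c, at chr11:87404905-87405204, both GRCm38.p6, minus strand, written 5′ to 3′. Capitals mark the CpGs that the files measured, 17 of 28 in the Dmrtb1 window, 4 of them after the start, and 2 of 24 in the Rad51c window, both before it. The files are on build mm9, and the windows were placed there by matching the spacing of measured CpGs to the CG letters of the sequence. Another placed start of Dmrtb1 has its window in the same tile (chr4:107684181-107684480, 2 of 9 CpGs measured), which is not shown.
Dmrtb1: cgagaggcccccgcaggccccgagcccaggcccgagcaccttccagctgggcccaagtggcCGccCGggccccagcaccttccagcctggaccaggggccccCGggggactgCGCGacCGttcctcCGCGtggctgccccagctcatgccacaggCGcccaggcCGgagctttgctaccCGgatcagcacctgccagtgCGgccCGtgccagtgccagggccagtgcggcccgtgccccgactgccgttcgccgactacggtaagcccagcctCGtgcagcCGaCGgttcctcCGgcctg
Rad51c: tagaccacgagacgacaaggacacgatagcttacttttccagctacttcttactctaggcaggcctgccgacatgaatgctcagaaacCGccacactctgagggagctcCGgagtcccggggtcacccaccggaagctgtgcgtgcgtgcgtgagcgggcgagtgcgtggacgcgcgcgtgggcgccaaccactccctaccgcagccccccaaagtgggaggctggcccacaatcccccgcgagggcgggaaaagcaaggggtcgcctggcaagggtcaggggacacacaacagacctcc

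In the Dmrtb1 tile (mm9 chr4:107356001-107357000, 28 CpGs), the 4 female MEF samples stood at 90.2%, 90.2%, 93.4% and 88.3% and the male ones at 83.5% and 85.9%. SSEA1− cells were at 86.6% and 85.2%, SSEA1+ cells at 79.8% and 88.5%, and iPSC at 34.8% and 35.1%. Female ESC were at 18.0% to 21.5% and male ESC at 16.9% and 26.4%. The SSEA1− samples and 1 SSEA1+ sample lay within the MEF range, and both iPSC samples lay below all of them. The groups read different CpGs of this tile: of 1385 iPSC reads 166 were in the promoter window shown, where 8 of the 17 CpGs had none. Over the 9 CpGs of that window with 10 or more reads in each group, the mean was 83.3% in MEF, 82.6% in SSEA1− and 89.6% in SSEA1+. It was 25.1% in iPSC, 15.2% in female ESC and 14.4% in male ESC. The window not shown had higher levels in pluripotent cells. Its 2 measured CpGs, 107356909 and 107356920, were at 49.3% and 52.2% in iPSC and 36.5% and 47.6% in female ESC. In male ESC both were at 63.0%, of 27 reads each. Over the 15 CpGs of the tile with 10 or more reads in iPSC and both kinds of ESC, iPSC were at 32.0%, female ESC at 24.6% and male ESC at 27.6%. Dmrtb1 encodes a DM-domain factor of spermatogenic cells. iPSC were lower than SSEA1− by 51.0 points and than SSEA1+ by 49.2 points (adjusted p = 3.6e-10 and 2.5e-08, quasi-binomial model, Benjamini-Hochberg over all tiles tested).

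The Rad51c tile (mm9 chr11:87218001-87219000, 7 CpGs) fell further. Rad51c acts in DNA repair by homologous recombination. Levels were 92.4% to 96.6% in female MEF, 97.9% and 90.0% in male MEF, 98.7% and 95% in SSEA1−, and 86.1% and 92.3% in SSEA1+. They were 9.06% and 6.50% in iPSC, 0.699% to 5.26% in female ESC, and 19.9% and 20.9% in male ESC. By tile level, iPSC lay between female and male ESC with no overlap, and 81.4 points below SSEA1+ (adjusted p = 4.1e-09). The order differed over the 2 CpGs of the promoter window. Their mean was 92.5% in MEF, 90.6% in SSEA1−, 79.2% in SSEA1+, 8.02% in iPSC, 0% in female ESC and 7.78% in male ESC.

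Averaged over the 153 tiles, SSEA1− and SSEA1+ cells remained near the fibroblast level, while iPSC were at the level of ESC. Mean levels by sample were 80.8% to 84.9% in the 6 MEF samples, 76.3% and 77.4% in SSEA1−, 73.8% and 67.4% in SSEA1+, 16.9% and 16.5% in iPSC, 10.1% to 11.5% in female ESC, and 17.9% and 15.8% in male ESC. As group means this is 82.9% ± 1.36 (SD, n = 6) in MEF, 76.8% ± 0.784 (n = 2) in SSEA1−, 70.6% ± 4.48 (n = 2) in SSEA1+, 16.7% ± 0.315 (n = 2) in iPSC, 10.9% ± 0.588 (n = 4) in female ESC and 16.9% ± 1.53 (n = 2) in male ESC. The SSEA1 samples did not overlap with MEF or with each other, and the iPSC samples lay between the 2 male ESC samples and above all female ones. Within a library type, the difference from MEF was -5.10 points in SSEA1−, -11.3 in SSEA1+ and -66.6 in iPSC.

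**Figure D1:**
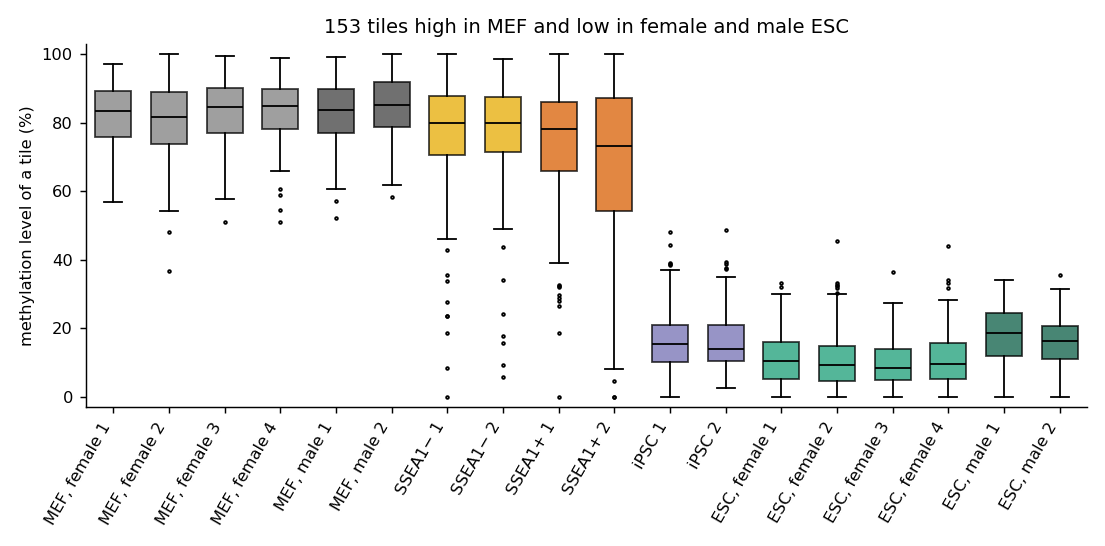
Box plots of the methylation level (%) of the 153 tiles in each of the 18 samples; boxes span the quartiles, the line is the median, whiskers reach 1.5 times the box, and dots are tiles beyond. Medians are 80% in both SSEA1− samples, 78.0% and 73.3% in SSEA1+, and 15.4% and 14.1% in iPSC.

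The iPSC level was low at every tile, with a range over tiles. No tile was above 48.8% in either iPSC sample. In the first iPSC sample 130 tiles and in the second 129 of 153 were at 25% or less, against 121 and 137 in the male and 143 to 149 in the female ESC samples. SSEA1− samples were at 50% or less at 12 and 8 tiles, SSEA1+ samples at 18 and 34.

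Tiles that were low in only 1 sex of ESC, or in neither, had higher iPSC levels. The group mean of iPSC was at 25% or less at 83.7% of the 153 tiles, at 49.3% of the 1624 tiles low in female ESC only, and at 3.57% of the 10704 tiles above 25% in both. Their mean iPSC levels were 16.7%, 29.0% and 65.0%. The SSEA1+ means in the same order were 70.6%, 79.6% and 81.9%, and the SSEA1− means 76.8%, 83.4% and 84.2%. No test was made between these classes, since ESC levels defined them. The MEF level also differed, at 82.9%, 85.7% and 86.0%.

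**Figure D2:**
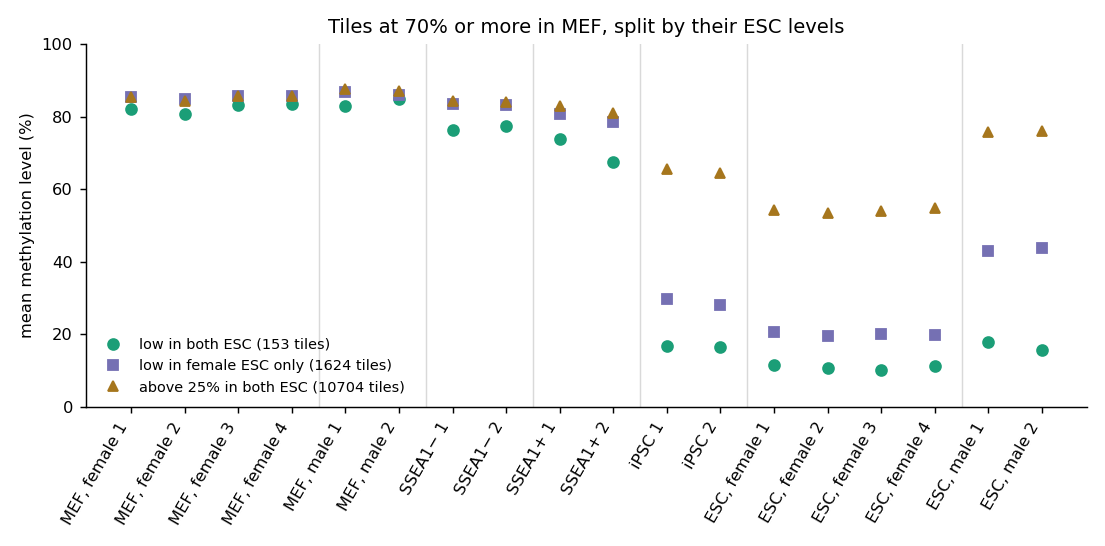
Mean methylation level (%) in each of the 18 samples for tiles at 70% or more in MEF, split by their ESC levels (circles, low in female and male ESC; squares, low in female ESC only; triangles, above 25% in both). The iPSC points lie at 16.9% and 16.5%, 29.7% and 28.2%, and, for tiles above 25% in both, around their mean of 65.0%.

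The drop between the sorted cells and iPSC passed the test at nearly every tile. A tile was called at a Benjamini-Hochberg adjusted p under 0.05, over all 33545 tiles, with a difference of at least 20 points. Against SSEA1+, 137 of 153 tiles were called lower in iPSC and 0 higher, where 20.1% of all tiles tested were called lower and 3.68% higher. Called lower were also 40.7% of those high in MEF and 90.7% of those low in female ESC only. The share among the 153 (89.5%) was thus near that of the last class. The median difference was -56.7 points, against 1.47 over all tiles tested. At an unadjusted p under 0.05, 147 tiles were lower and 0 higher, and limma on log2 ratios called 133 lower and 0 higher (19.5% and 3.56% of all tiles tested).

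Against SSEA1−, 146 tiles (95.4%) were called lower in iPSC, where 22.5% of all tiles tested, 45.3% of those high in MEF and 96% of those low in female ESC only were. The median difference was -63.0 points. In iPSC 1 tile was called higher, where 3.93% of all tiles tested were, the tile at mm9 chr19:40424001-40425000 described below. iPSC and SSEA1 samples share no library type. With library type as a term, 122 tiles were called lower than SSEA1+ and 139 lower than SSEA1−, where 14.8% and 17.3% of all tiles tested were.

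MEF levels chose the tiles, so fibroblasts were compared only after choosing again without the samples compared. Without female MEF 3 and 4, the rule took 162 tiles, 146 of them among the 153. All 162 were called lower in iPSC than in those MEF samples, which are of the same library type, where 23.9% of all tiles tested were called lower and 2.17% higher. Of tiles high in MEF 46.3% were called lower, and of those low in female ESC only 96.7%. Differences ran from -88.9 to -32.8 points, with a median of -66.5.

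Fewer tiles were called lower in the sorted cells than in iPSC. Without female MEF 2 and male MEF 1, the rule took 159 tiles. Of these, 27 (17.0%) were called lower and 0 higher in SSEA1+ than in that MEF pair, where 2.31% of all tiles tested were called lower and 0.477% higher. Called lower were 3.45% of tiles high in MEF and 5.6% of those low in female ESC only. At an unadjusted p under 0.05 there were 55 lower and 8 higher, and limma on log2 ratios called 8 lower and 0 higher (0.859% and 0.131% of all tiles tested). In all, 119 of the 159 tiles (74.8%) had a lower mean in SSEA1+ than in MEF, where 59.4% of all tiles tested did. For SSEA1− the count was 100 (62.9%), near the 57.4% of all tiles tested. In SSEA1− 9 tiles (5.66%) were called lower and 1 higher, where 1.14% and 0.122% of all tiles tested were, and where 1.32% of tiles high in MEF and 1.42% of those low in female ESC only were called lower. These counts rest on single libraries: without male MEF 1, the deepest library, 1 tile each was called lower in SSEA1+ and SSEA1−, and the shares of all tiles tested fell to 0.256% and 0.0984%. Without SSEA1+ replicate 2 the median difference of SSEA1+ from MEF was -4.41 points, against -6.32 with both samples. Without female MEF 2 that of SSEA1− was -2.66 points, against -1.98.

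Between the sorted populations, 6 of the 153 tiles (3.92%) were called lower in SSEA1+ and 0 higher, where 0.793% of all tiles tested were called lower and 0.516% higher. Called lower were 1.22% of those high in MEF and 1.97% of those low in female ESC only. At an unadjusted p under 0.05, 29 were lower and 5 higher, and limma on log2 ratios called 5 lower and 0 higher (0.516% and 0.340% of all tiles tested); 4 of the 6 tiles were among its calls. The median difference was -3.67 points, against -1.69 over tiles high in MEF. Both SSEA1+ samples lay below both SSEA1− samples at 42 tiles (27.5%), near the 26.1% of tiles high in MEF, where 19.3% of all tiles tested did so. Both lay above at 11 tiles (7.19%), where 13.2% of all tiles tested and 11.5% of tiles high in MEF did so. Without SSEA1− replicate 1, and likewise without replicate 2, 3 tiles were called lower.

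The SSEA1+ samples differed from each other. They were over 20 points apart at 37 tiles, and replicate 2, the sample with the fewest reads, was the lower at 31 of these. The SSEA1− samples were over 20 points apart at 11 tiles, the male ESC samples at 5 and the iPSC samples at 0. At the tile in Hsf5 (mm9 chr11:87431001-87432000, 335 bases from the placed start), a gene of the heat shock factor family active in testis, SSEA1+ replicate 1 was at 98.7% of 75 reads and replicate 2 at 24.5% of 98 reads. With both samples summed, the neighbouring CpGs 87431001, 87431006 and 87431010 were at 28.6%, 25.7% and 31.4% of 35 reads each. CpGs 87431083 and 87431105 were at 100% of 34 reads each, so the low values lay on part of the tile. The part of the lower depth in these gaps was not tested.

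**Figure D3:**
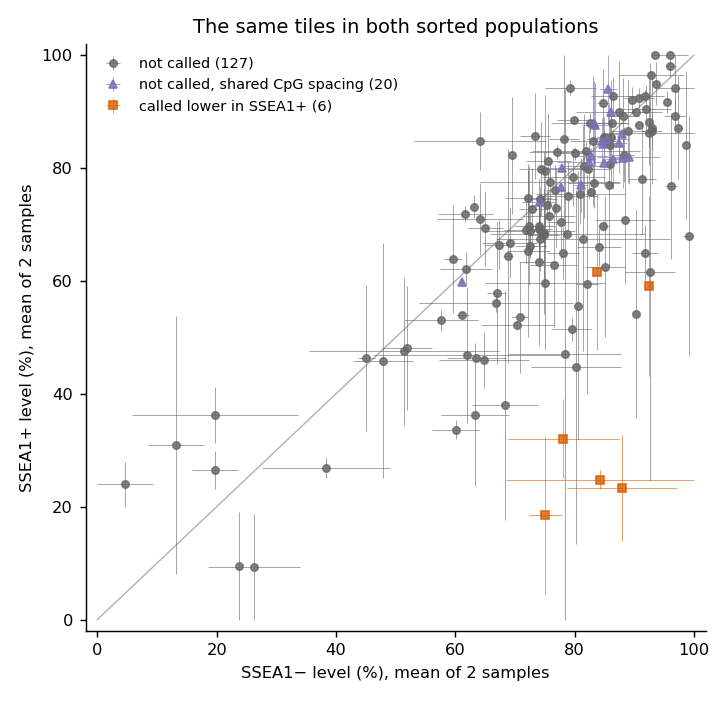
Level (%) of each of the 153 tiles in SSEA1− (horizontal axis) and SSEA1+ (vertical axis), as means of 2 samples with lines to both samples; the grey line marks equal levels. The 6 tiles called lower in SSEA1+ are squares, the 20 tiles with a shared CpG spacing are triangles near the upper right, and at the lower left a few tiles are low in both populations.

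Of the 6 tiles lower in SSEA1+, 2 kept the call in every setting in which they were tested; in those that leave out a sorted sample, the lone sample left is assumed to vary like the other groups. One was at mm9 chr5:115950001-115951000 (7 CpGs, 15542 bases from the nearest placed start). It stood at 66.3% to 78.2% in the 6 MEF samples, 72.3% and 77.9% in SSEA1−, 32.3% and 4.55% in SSEA1+, 16.5% and 14.2% in iPSC, 0% to 10.8% in female ESC and 23.4% and 25.7% in male ESC. Here SSEA1− overlapped with MEF, and SSEA1+ overlapped with the pluripotent cells. The difference between the sorted cells was -56.7 points (adjusted p = 0.0024).

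The other, at mm9 chr9:40606001-40607000 (4 CpGs, 165201 bases from the nearest placed start), has under 100 reads in SSEA1+ and is named after its values were seen. Its levels were 79.2% to 89.1% in MEF, 97.2% and 78.7% in SSEA1−, 32.7% and 13.9% in SSEA1+, 10.7% and 9.97% in iPSC, and 1.54% to 15.7% in ESC. The difference was -64.7 points (adjusted p = 0.0017). The SSEA1+ samples hold 55 and 36 reads there, so the level of each is known only coarsely.

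The call at the 4 others was lost without at least 1 sample, and the last pair below lost it with limma too (adjusted p = 0.055 and 0.16). The tile at mm9 chr14:52934001-52935000, 9202 bases from the start placed for Mettl3 (the RNA m6A methyltransferase), was at 26.5% and 23.1% in SSEA1+ against 100% and 68.5% in SSEA1− (adjusted p = 0.023). The tile at mm9 chr7:88480001-88481000 was at 39.1% and 25% against 87.5% and 68.8% (adjusted p = 0.021). The remaining ones, at mm9 chr8:124094001-124095000 and chr16:4648001-4649000, differed by -33.4 and -22.2 points (adjusted p = 0.023 and 0.015).

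A few tiles were low in both sorted populations. Taken separately, the group mean was at 25% or less at 5 tiles (3.27%) in SSEA1− and 6 (3.92%) in SSEA1+. Among all tiles high in MEF these shares were 0.176% and 0.208%. A tile inside Nxn (mm9 chr11:76171001-76172000, 6 CpGs, 40643 bases from the start), which encodes the thioredoxin-family protein nucleoredoxin, was at 79.0% to 93.0% in MEF. It was at 23.6% and 24.0% in SSEA1−, 0% and 19% in SSEA1+, 8.19% and 6.75% in iPSC, 0% to 4.76% in female ESC and 3.03% and 4.94% in male ESC. All 4 sorted samples lay below every MEF sample.

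The tile 518 bases from the start of Avpi1 (mm9 chr19:42204001-42205000, 4 CpGs) was at 62.0% to 78.7% in MEF, 23.5% and 15.8% in SSEA1−, 29.8% and 23.2% in SSEA1+, and 8.40% and 11.2% in iPSC. The sorted cells lay between the fibroblasts and iPSC with no overlap. The tile at mm9 chr19:40424001-40425000 (5 CpGs, 77895 bases from the start placed for Pdlim1) was lower in SSEA1− (0% and 9.33%) than in iPSC (39.0% and 29.1%), by 29.4 points (adjusted p = 0.0038). SSEA1+ stood at 28.0% and 20% there, and MEF ranged from 52.2% to 87.0%.

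At the other end, among tiles with 100 reads or more in each sorted population, tiles in Plcxd1 (mm9 chr5:110534001-110535000) and Dnmbp (mm9 chr19:43964001-43965000), and a tile at mm9 chr2:156846001-156847000, had the highest levels in sorted cells. The 4 sorted samples were at 95.1% to 100% in Plcxd1 and 87.2% to 98.3% in Dnmbp, a gene for an exchange factor of the GTPase Cdc42. In iPSC these tiles were at 18.3% and 12.7%, and at 9.19% and 10.5%. At the chr2 tile both SSEA1+ samples were at 100% and both iPSC samples at 17.4% and 24.5%. Their iPSC samples did not overlap with any sorted sample.

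Among tiles with 100 reads or more in MEF and in each kind of ESC, the difference between MEF and ESC was largest in Ssh1 (mm9 chr5:114393001-114394000, 7 CpGs), which encodes the cofilin phosphatase Slingshot 1. The 6 MEF samples were at 90.0% to 96.1%, SSEA1− at 93.7% and 93.8%, SSEA1+ at 98.8% and 91.1%, iPSC at 6.38% and 7.14%, female ESC at 0% to 7.33% and male ESC at 4.46% and 7.02%. Next came a tile in Dhx16, an RNA helicase of the spliceosome (mm9 chr17:36024001-36025000), at 91.8% to 97.0% in MEF and 12% and 12.3% in iPSC, and one in the overlapping genes Scamp4 and Adat3 (mm9 chr10:80069001-80070000), at 88.8% to 95.7% and 8.84% and 8.60%. In both tiles SSEA1+ replicate 2 was the lowest sorted sample, at 46.7% of 30 reads and 59.5% of 84 reads.

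**Figure D4:**
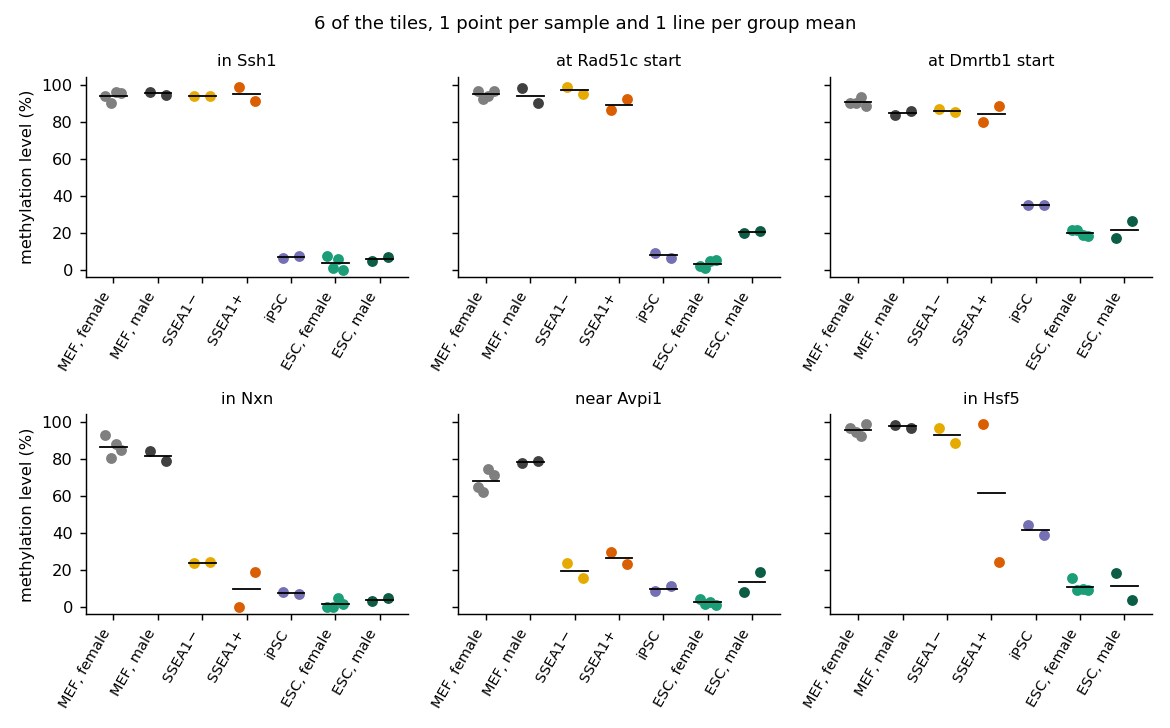
Methylation level (%) in each of the 18 samples (points, by group) at 6 of the tiles, with the group mean as a line. Tiles in Ssh1 and at the starts of Rad51c and Dmrtb1 are high in both sorted populations, those in Nxn and near Avpi1 are low in them, and in Hsf5 the SSEA1+ samples lie at 98.7% and 24.5%.

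The highest iPSC levels were found at mm9 chr13:34839001-34840000 (48.0% and 48.8%), in Hsf5 (44.3% and 38.8%) and at mm9 chr4:81455001-81456000 (38.5% and 37.4%). In each, both tile levels of iPSC were above those of all 6 ESC samples, which reached 22.3%, 18.6% and 32.9%, but the reads lay on different CpGs. Over the CpGs with 10 or more reads in iPSC and both kinds of ESC, the chr13 tile (2 CpGs) was at 44.7% in iPSC, 33.5% in female and 42.6% in male ESC. The Hsf5 tile (4 CpGs) was at 36.2%, 29.1% and 39.1%, and the chr4 tile (7 CpGs) at 29.0%, 23.3% and 32.0%, so that male ESC were the highest of the 3 in both. By tile level, iPSC lay below both SSEA1− samples, at 85.9% or more, 88.5% or more and 82.4% or more.

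By position, the tiles were mostly away from the start sites that could be placed, and a start that was not placed may lie nearer. The reference table is on another build, so start sites were placed by CpG spacing for 10080 genes, and transcribed spans are approximate, with exon or intron not given; 148 of the 153 tiles lay on chromosomes with placed starts. Of these, 2 (1.35%) lay in a promoter window and 28 (18.9%) within 5 kb of a start, against 0.820% and 5.31% of tiles high in MEF, and 15.5% and 27.6% of the 25766 eligible tiles. A transcribed span held 67 tiles (45.3%), against 23.1% of tiles high in MEF and 30.5% of eligible ones. No test was made of these shares, since the tiles were chosen by their levels.

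Genes for zinc-finger proteins of the Zfp and Zbtb names held 9 of the tiles (6.08%), against 0.472% of tiles high in MEF. The share was 0.886% of tiles low in female ESC only and 0.549% of eligible ones. This family was on none of the gene lists described below, and its share was not tested. The genes holding the 9 tiles were Zfp64, Zfp282, Zfp467, Zfp775, Zfp628, Zfp787, Zfp319, Zbtb22 and Zbtb12. In Zfp467 (mm9 chr6:48389001-48390000), both male ESC samples were at 0%, of 80 and 52 reads, and iPSC were at 6.57% and 6.11%. Sorted cells there ranged from 54.3% to 73.4% and MEF from 54.2% to 92.2%. In Zfp319 (mm9 chr8:97852001-97853000) SSEA1+ cells were at 93.0% and 95.6%, SSEA1− at 75% and 83.5% and iPSC at 13.7% and 6.64%. In Zbtb22 (mm9 chr17:34055001-34056000) sorted cells were lower, at 37.1% to 59.1%, and overlapped with no MEF sample, the lowest of which was at 70.9%.

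Another 3 genes with a tile in their span are named after their values were seen. In Notch1, a receptor of cell fate decisions (mm9 chr2:26315001-26316000), sorted cells were at 82.6% to 95.9%, iPSC at 5.26% and 2.66% and ESC at 2.92% to 13.7%. In Jade1, a subunit of a histone acetyltransferase complex (mm9 chr3:41361001-41362000, 1345 bases from the start), they were at 76.0% to 89.9% against 3.56% and 4.51% in iPSC. In Ptk7, a receptor-like protein of Wnt signalling (mm9 chr17:46746001-46747000), SSEA1+ cells at 32.0% and 35.3% lay below SSEA1− cells at 64.1% and 56.2%. The difference in Ptk7 was not called (adjusted p = 0.059).

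The gene lists drawn up for pluripotency, germline, epithelial and fibroblast genes met the tiles in few places. Of the 40, 22, 26 and 15 genes listed, only 15, 11, 11 and 4 could be placed, and 9, 6, 9 and 3 had a testable tile within 5 kb. The other listed genes were not examined. Within 5 kb of the starts that could be placed, the lists had 17, 7, 14 and 6 testable tiles. Of these, 0, 5, 2 and 0 were high in MEF, and 0, 1, 2 and 0 were among the 153. The germline tile is that of Dmrtb1. The epithelial ones lie 4084 bases from the start of Cldn3, a tight junction protein (mm9 chr5:135457001-135458000), and 996 bases from that of Spint2, an inhibitor of epithelial proteases (mm9 chr7:30065001-30066000). The Cldn3 tile was at 62.6% to 87.2% in MEF, 47.7% and 71.7% in SSEA1+ and 11.8% and 11.9% in iPSC. The Spint2 tile was at 74.2% to 90.9% in MEF, 57.8% and 54.5% in SSEA1+, 53.8% and 79.8% in SSEA1−, and 23.7% and 14.1% in iPSC. At both, sorted samples overlapped with each other.

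The tiles were scattered. None adjoined another, and the closest pair lay 2 kb apart on chromosome 7, at mm9 chr7:4981001-4982000 and chr7:4983001-4984000, near Zfp784. Of 40 tested tiles next to 1 of the 153, 30 were at 70% or more in MEF, 26 of those 30 at 50% or less in iPSC, and 24 at 50% or less in female and in male ESC. 

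CpG spacing set apart 20 of the 153 tiles (13.1%). Their CpGs fall largely on a shared pattern with a period of 212 bases, the most frequent distance over 100 bases between CpGs of the 153 tiles. A tile was counted if at least 6 of its CpGs, and at least 60% of them, fell on 10 positions of that period, a rule drawn up after seeing the data. In the 20 tiles 215 of 240 CpGs did so. The rule needs no repeat within a tile, and several of the 20 held no pair of CpGs 212 bases apart. Tandem monomers of about this length form the start of young mouse LINE-1 elements of the TF family. No sequence of the files' build was in hand, so the identity of these tiles was not tested, and how reads matching several copies were handled is not given in the sources used here. The spacing was found in 11.9% of tiles high in MEF and in 55.4% of those low in female ESC only.

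The 20 spaced tiles had higher levels than the 133 others in sorted cells and in ESC; ESC levels chose them, and this difference was not tested. Their mean levels were 84.3% ± 2.15 (SD, n = 6) in MEF, 82.7% ± 0.226 (n = 2) in SSEA1−, 82.1% ± 1.68 (n = 2) in SSEA1+, 19.4% ± 0.474 (n = 2) in iPSC, 18.7% ± 2.01 (n = 4) in female and 22.8% ± 4.63 (n = 2) in male ESC. The 133 others were at 75.9% ± 0.936 in SSEA1−, 68.9% ± 5.41 in SSEA1+, 16.3% ± 0.434 in iPSC, 9.71% ± 0.743 in female and 16.0% ± 1.07 in male ESC. None of the 20 was called lower in SSEA1+ than in SSEA1−, where 0.793% of all tiles tested and 1.22% of tiles high in MEF were. At such shares, 0 of 20 does not set these tiles apart. All 20 were called lower in iPSC than in either, where 20.1% (SSEA1+) and 22.5% (SSEA1−) of all tiles tested were. Among tiles low in female ESC only, 90.7% and 96% were. The whole set of 1484 spaced tiles high in MEF had a mean of 37.4% in male ESC, and 21 of them were at 25% or less there, the 20 among these.

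**Figure D5:**
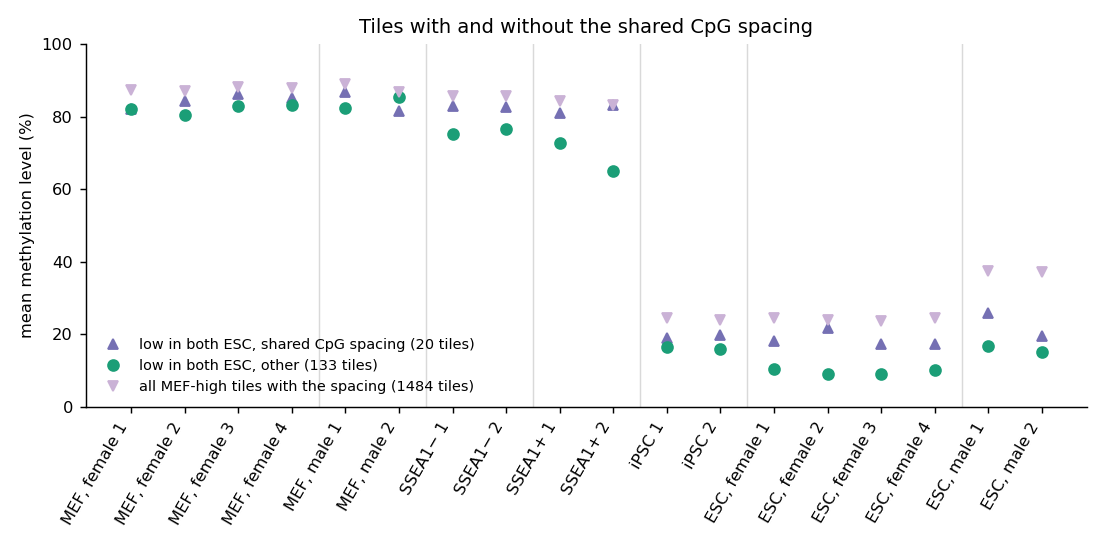
Mean methylation level (%) in each of the 18 samples for the 20 tiles with the shared CpG spacing (upward triangles), the 133 others (circles) and all 1484 tiles high in MEF with that spacing (downward triangles). In SSEA1+ the others are at 72.7% and 65.0% and the 20 at 80.9% and 83.3%; in male ESC the 20 are at 26.0% and 19.5% and the whole set at 37.4% and 37.3%.

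Tiles at the edges of the choice show how narrow it was. The tile just inside the MEF limit (mm9 chr14:42974001-42975000) was at 60.5% to 81.0% in MEF and that just outside (mm9 chr14:46065001-46066000) at 61.8% to 81.9%. Inside the female ESC limit (mm9 chr4:21577001-21578000) the 4 samples ran from 7.50% to 45.5%, and outside it (mm9 chr13:109299001-109300000) from 19.6% to 31.0%. Inside the male ESC limit (mm9 chr3:102239001-102240000) the samples were at 33.3% and 16.7%. With a minimum of 10 or 3 reads per CpG the rule took 34 and 248 tiles.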

How the data were processed

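The deposited tables hold, per the file headers and values, 2 read counts for each CpG and strand, methylated and total; the authors' score column was not used. Build mm9 is named per the submitters' processing notes, and aligner and caller were not given in the sources used here. Strands were added and reads summed over CpGs with at least 5 reads in tiles of 1 kb. "Under 30 CpGs" was read as CpGs covered in at least 1 sample. A quasi-binomial model of the 7 groups, or with MEF split by library type into 3, was fitted to all 33545 tiles and 18 samples, with dispersion moderated across tiles and held at 1 or more, F tests and Benjamini-Hochberg adjustment; a call needs adjusted p under 0.05 and 20 points. Library type rests on how many CpGs had reads from both strands (over 14% in B, under 8% in C). The model was tested on simulated data. Named tiles are at most 3 per class (largest MEF minus ESC difference, lowest and highest SSEA1 level, highest iPSC level, calls in either direction between sorted cells, tiles at each limit, promoters of listed genes), 1 per 10 kb with 100 reads per ranking group. Other tiles are said to be named after their values were seen, or belong to a group described in full (zinc-finger genes, listed genes, calls); in the zinc-finger group the 3 with values were chosen so too.

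The tiles and the gene lists were chosen with earlier results of these data known. Start sites came from RefSeq promoter sequences (GRCm38.p6), placed by CpG spacing; of 10413 with 3 or more measured CpGs, 99.97% had each of these on a CG. Chromosome 18 was not matched. Alternatives were other read minimums, CpGs read in all samples, equal CpG weights, stricter limits, a cap of 50 reads, limma on log2 ratios (prior count 1), the replicate number as a block, library type as a term and leaving out each sample. Chosen after seeing the data were levels over CpGs with 10 or more reads in the groups compared, leaving out spaced tiles and a CpG limit within each sample. Software was limma 3.58.1 under R 4.3.3, and scipy 1.17.1, pandas 2.3.3 and numpy 2.4.6 under Python 3.11.15.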

Additional observations from a re-analysis of the deposited data

Results flagged for a closer look

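Among 52 groups of 4 samples (female ESC or female MEF, at the named tiles and for the mean of the 153), 2 held a sample far from the others, and chance alone flags about 1 in 20 groups. At mm9 chr19:40424001-40425000 female ESC replicate 4 was at 21.9%, with the others at 8.57% to 9.43%; it held 32 reads there. At the Hsf5 tile, mm9 chr11:87431001-87432000, female ESC replicate 1 was at 15.4%, with the others at 8.99% to 9.95%. Both samples are still under the limit of 25%.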

How the results depend on the processing

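Called shares against iPSC stayed within 1.5 times: library type as a term gave 79.7% lower than SSEA1+, and leaving out each sample gave 79.7% to 92.8% of the tiles lower than SSEA1+, 94.1% to 95.4% lower than SSEA1− and 99.4% to 100% lower than MEF. Between the sorted cells, SSEA1+ was lower at 0% of 34 tiles with a minimum of 10 reads, where none of the 6 called tiles was tested, at 6.85% of 248 with 3 reads and 7.14% of 28 with stricter limits; leaving out each sample gave 1.96% to 3.92%, and for higher 0% to 0.654%. Against MEF, SSEA1+ was lower at 7.89% with 10 reads and 5.03% with limma, and at 0.629% to 18.9% leaving out each sample; SSEA1− was lower at 2.63%, 1.26% and 0.629% to 8.81%. Over all tiles tested, SSEA1+ was lower than SSEA1− at 0.508% with 10 reads, 0.894% with 3 and 0.793% with stricter limits. Lower than MEF over all tiles was SSEA1+ at 1.37% with 10 reads and 0.859% with limma, and SSEA1− at 0.587% and 0.215%. The number of tiles was 34 with 10 reads, 248 with 3, 66 from CpGs read in all samples, and 152 to 194 leaving out each sample. Mean levels moved by more than their small SD to 76.0%, 72.5%, 81.3% and 75.9% in SSEA1− (10 reads, CpGs in all samples, stricter limits, without spaced tiles), and to 17.4%, 16.1%, 12% and 16.3% in iPSC (3 reads, CpGs in all samples, stricter limits, without spaced tiles). Leaving out each sample gave 67.4% to 73.8% in SSEA1+, 75.8% to 77.6% in SSEA1− and 16.4% to 18.7% in iPSC. No result reversed, and the cause of these shifts was not tested beyond the changed set of tiles.

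With the replicate number as a block, SSEA1− was lower than MEF at 3.14% of 159 tiles (5 tiles), where 0.593% of all tiles tested were. SSEA1+ was lower than SSEA1− at 4.58% (0.608% of all tiles tested) and lower than MEF at 11.3% (1.62% of all). iPSC were lower than MEF at 87.7% of 162 tiles (142 tiles), where 18.7% of all tiles tested were. Deviations of same-numbered samples correlated at 0.0134 (SSEA1+ and SSEA1−), 0.0363 and 0.000507 (each with iPSC) over all tiles. At the tiles chosen by the rule with all samples, the values were -0.238, 0.0714 and -0.0212 in the same order. MEF samples were not examined in this way. With so few samples per group, such values cannot decide whether same-numbered samples share more than a number, and this was not tested. The shallowest library at these tiles was SSEA1+ replicate 2, with a median of 47 reads per tile.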

Other observations

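A second CpG spacing marked tiles that behaved otherwise. Among tiles high in MEF and above 25% in both ESC, the most frequent distance over 100 bases between CpGs was 208 bases, not 212. Tiles with 3 or more CpG pairs 212 bases apart, and fewer than 3 pairs 208 apart, numbered 1172 among tiles high in MEF; those of the reverse kind numbered 1156, and 70 had 3 or more of each. The first kind stood at 87.6% ± 0.812 (SD, n = 6) in MEF, 83.8% ± 0.460 (n = 2) in SSEA1+, 24.3% ± 0.394 (n = 2) in iPSC, 24.1% ± 0.439 (n = 4) in female ESC and 37.4% ± 0.0360 (n = 2) in male ESC. The second stood at 89.2% ± 1.07 in MEF, 87.3% ± 0.0155 in SSEA1+, 70.5% ± 0.376 in iPSC, 70.6% ± 0.879 in female ESC and 69.0% ± 0.114 in male ESC. Among the 153 tiles low in both ESC, 13 were of the first kind and 0 of the second, against 1172 and 1156 of the 12493 tiles high in MEF. The 212-base distance was taken from the 153 tiles and the 208-base distance from tiles above 25% in both ESC. The counts and the ESC levels of the 2 kinds therefore carry that choice. Both spacings were chosen after seeing the data and the kinds were not compared by a test.

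On the X, where the choice did not look, 6 tiles met the same limits of level. They averaged 81.8% ± 3.04 (SD, n = 6) in MEF, 74.5% ± 0.438 (n = 2) in SSEA1−, 75.8% ± 0.458 (n = 2) in SSEA1+ and 13.6% ± 0.785 (n = 2) in iPSC. Among autosomal tiles of 30 or more CpGs, 9 met these limits, with iPSC at 13.6% ± 0.132 and SSEA1+ at 79.2% ± 7.42.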
